A study of Mus musculus with 13 samples.

Results

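Progranulin is a secreted glycoprotein that is also delivered to lysosomes, where it is cut into granulins, and human carriers of 1 inactive GRN copy develop frontotemporal dementia. The genes described here are mouse Grn and 5 genes chosen for known roles beside it: Sort1, Lrp1, Psap, Tmem106b and Slpi. They are 6 of the 17562 genes listed in the authors' deposited tables, and each was found by its symbol. Sortilin, the product of Sort1, binds progranulin at the cell surface and carries it to the lysosome. Prosaposin, the product of Psap, binds progranulin and gives it a second route there through Lrp1 and the mannose 6-phosphate receptors. Tmem106b encodes a lysosomal membrane protein whose gene modifies disease risk in GRN carriers, and Slpi encodes an inhibitor that shields progranulin from cutting by elastase.

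Cortical RNA of 13 mice, all male and 18 months old, was sequenced. The study asked how the aged cortical transcriptome responds to a deficit of mouse progranulin and to human progranulin in its place. There were 5 wild-type mice (WT, Grn+/+), 4 with 1 functional mouse copy (Grn+/-), and 4 labelled as without a functional mouse copy and with a human GRN transgene (Grn-/-;GRNtg), which the series' design text calls humanized and progranulin deficient. All animals of the last group carry the transgene, so loss of mouse Grn and presence of human GRN cannot be told apart in it, and the labels name neither the transgene's promoter nor its copy number. The tables hold, for each gene, a mean normalized count over libraries and, for each pair of genotypes, the log2 fold change and its SE, the standard error, with no value per mouse. A gene is called where the authors' adjusted p lies under 0.05, and errors after ± are SEs unless another is named. All 6 neuronal, 8 microglial, 6 astrocytic and 6 oligodendrocyte markers sought were listed. They mark cell types and not a brain region, and genes with a mean normalized count as low as 0.523 were listed. The listing therefore does not test the labelled tissue. The choroid plexus markers sought were not analysed here.

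Of the members, 5 were listed in both comparisons with WT and all 6 in the comparison of the mutant groups. The authors' deposited table called 2 of 5 in Grn+/- against WT, Grn lower and Psap higher, where 6.8% of all 13482 genes were called. It called the same 2, in the same directions, in Grn-/-;GRNtg against WT, where the share of all 14961 genes was 4.87%. Between the mutant groups, 1 of 6 was called, Grn, beside 0.467% of all 17562 genes. Grn is the gene that both mutant genotypes alter, so its calls come from the design and say nothing of the other members. Apart from Grn, Psap alone was called in each comparison with WT, and no member between the mutant groups. Both comparisons with WT use the same 5 WT mice, so the second is not independent of the first. Nothing says that the mice came from separate litters or runs, and p-values measure only the spread between these libraries.

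**Figure D1:**
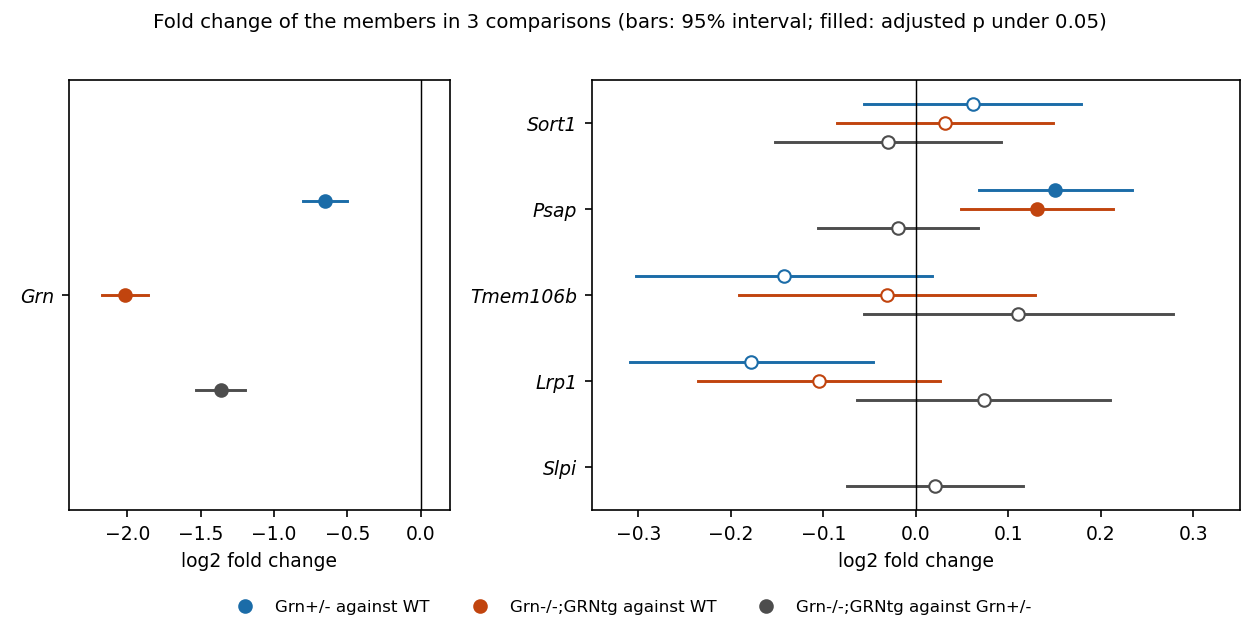
Log2 fold change of each member (points) with its 95% interval (bars) in the 3 comparisons, from the authors' deposited tables, with Grn on its own axis at left. Filled points passed an adjusted p of 0.05: Grn in all 3 comparisons and Psap in both against WT. Slpi has 1 value because it is listed in 1 table.

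The start regions of Grn and Psap are shown because these are the members whose transcripts passed the test, and because both genes are known targets of the TFEB family, lysosomal regulators that bind E-box and M-box elements. Each is the 250 bases before the RefSeq start (GRCm38.p6), 5′ to 3′ on the gene's strand. Capitals mark an M-box core (TCACATG, or CATGTGA on the other strand) or a GC box (GGGCGG or CCGCCC). Grn lies at chr11:102430257-102430506, plus strand, and Psap at chr10:60277378-60277627, plus strand.
Grn: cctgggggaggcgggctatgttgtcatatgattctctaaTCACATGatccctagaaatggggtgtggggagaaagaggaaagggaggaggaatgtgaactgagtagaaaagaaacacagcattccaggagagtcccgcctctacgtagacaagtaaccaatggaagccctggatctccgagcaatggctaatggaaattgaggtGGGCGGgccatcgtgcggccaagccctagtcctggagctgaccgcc
Psap: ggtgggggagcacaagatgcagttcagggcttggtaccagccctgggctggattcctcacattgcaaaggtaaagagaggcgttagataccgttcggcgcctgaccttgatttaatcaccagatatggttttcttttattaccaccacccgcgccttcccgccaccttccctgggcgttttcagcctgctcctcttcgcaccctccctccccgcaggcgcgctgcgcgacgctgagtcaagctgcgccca
The Grn region held 1 M-box core, 211 to 205 bases before the start, and 1 GC box, 46 to 41 bases before it. GENCODE M21 places the start of Grn further upstream than RefSeq does, within this region and between both matches, so that the GC box lies inside the gene by that annotation. The Psap region held neither, nor did a second, internal Psap start that RefSeq lists. Over all 32851 mouse start regions of this length, 3.5% held the M-box core and 32.7% the GC box. The E-box core CACGTG stood in 6.02% of them and, among the 5 members with a RefSeq start region, in Slpi alone, 146 to 141 bases before its start, in the context AGTCCACGTGTGAT. A TATA box (TATAAA or TTTATA) stood in 12.4% of all regions and in 0 of these members' regions, and no 2 matches overlapped. The M-box core was chosen after the Grn sequence had been read. A match describes letters only, and its absence covers only this window.

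Mouse Grn encodes progranulin itself and spans chr11:102430315-102437048 on the plus strand in GENCODE M21 (GRCm38). Its mean normalized count was 784 over all libraries, more than in 71.0% of the 17562 listed genes. With the group sizes and the deposited fold changes, this mean corresponds to 1195 normalized counts in WT, 760 in Grn+/- and 295 in Grn-/-;GRNtg. The order WT, Grn+/-, Grn-/-;GRNtg held with every step past the test. In the authors' deposited table Grn fell in Grn+/- by 0.65 on the log2 scale (SE 0.077, adjusted p = 2.9e-13), which leaves 63.6% of the WT level with a 95% interval of 57.3% to 70.6%. The interval lies above the 50% that 1 of 2 equally transcribed copies would leave if the altered copy gave no reads. Reads assigned to Grn also remained in Grn-/-;GRNtg, as given next, so the output of the intact copy cannot be told from this value. In Grn-/-;GRNtg, Grn fell by 2.02 in the authors' deposited table (SE 0.081, adjusted p = 5.8e-131), to 24.7% of WT (22.1% to 27.6%). Against Grn+/- it fell by 1.36 (SE 0.085, adjusted p = 5.2e-53), per the authors' deposited table, to 38.9% (34.6% to 43.7%). Grn had the largest absolute Wald statistic, the fold change over its SE, of all genes in each of the 3 tables. By fold change it was the lowest of all genes in both tables with Grn-/-;GRNtg and 18th from the lowest of 13482 in Grn+/- against WT.

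Reads assigned to mouse Grn thus remained in mice labelled Grn-/-. Reads of the human transgene that match mouse Grn cannot be told apart from reads of the targeted mouse locus in these tables. Grn also shares 68 exonic bases with Fam171a2 on the opposite strand, and no source used here gives the strand setting of the counting. Fam171a2, at 3293 normalized counts on average, was at -0.08 ± 0.076 in Grn+/- against WT (adjusted p = 0.64) in the authors' deposited table. It was at -0.04 ± 0.076 in Grn-/-;GRNtg against WT (adjusted p = 0.82) there, in the same authors' deposited table.

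The deposited fold changes carry the marks of a zero-centred prior, which draws them towards 0. Their SEs rise as counts fall and reach a ceiling of 0.138 in each table. In both tables with Grn-/-;GRNtg, which list genes of lower counts than the third, they then decline again, as the error of such a shrunken estimate does. Solving the 3 SEs of each gene for the share of the deviation kept gave a ratio of WT to Grn+/- variance of 0.801 for Psap, 0.801 for Sort1, 0.799 for Lrp1 and 0.796 for Tmem106b, beside 0.8 from the numbers of mice in the 2 groups. For Grn itself, whose counts differ between these groups, the ratio was 0.752. For Grn the kept share was 92.6% in WT, 90.4% in Grn+/- and 88.1% in Grn-/-;GRNtg. With the prior undone on that basis, Grn was at 61.6% of WT in Grn+/- (54.9% to 69.1%) and at 21.2% in Grn-/-;GRNtg (18.7% to 24.0%). The second value lies below the deposited interval, and the first within it. The other 4 members with values in all tables moved by less than their intervals.

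**Figure D2:**
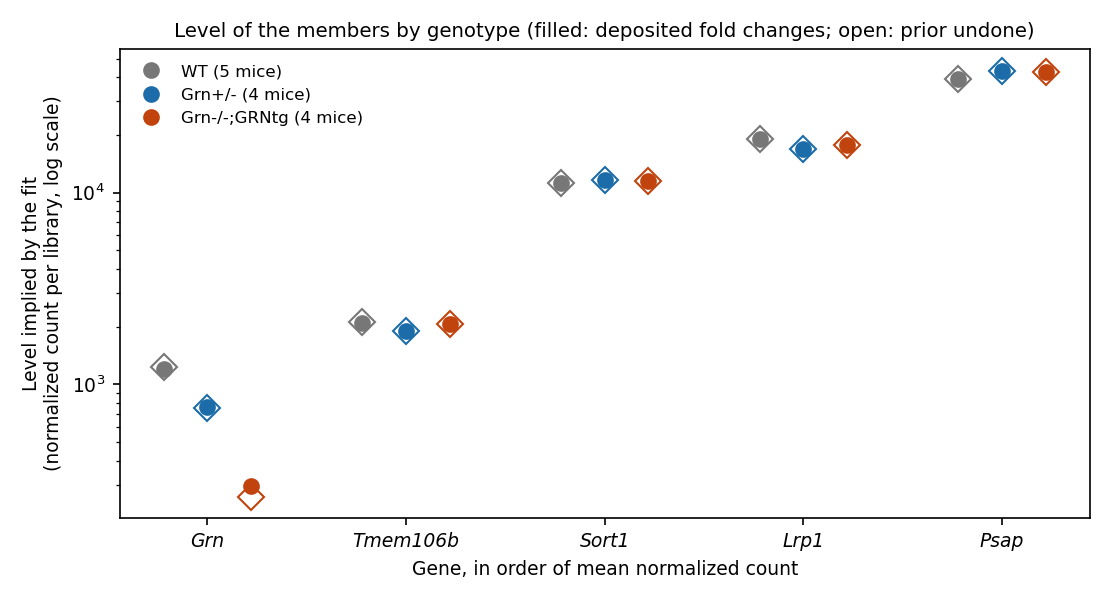
Level of 5 members in each genotype, as normalized counts per library implied by the mean normalized count and the fold changes (log axis); filled circles use the deposited fold changes and open diamonds those with the prior undone. Grn steps down from 1195 in WT to 760 and 295, and the genotypes of the other genes lie close together.

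Psap encodes prosaposin, the precursor of 4 saposins that help lysosomal enzymes reach their lipids, and spans chr10:60277627-60302597 on the plus strand. It was by far the most abundant member, with a mean normalized count of 41411. Per kilobase of exon its mean was 15091, which 5 of the 16888 genes with a length exceeded, and 66.9 times that of Grn. With the longest transcript as the length, 12 genes exceeded it and the ratio to Grn was 46.5. Both ratios use means over all genotypes, and the mean of Grn, 784, lies under its WT level of 1195. They are therefore above the ratios in WT alone. The deposited fold changes correspond to 38949 normalized counts in WT, 43243 in Grn+/- and 42655 in Grn-/-;GRNtg. Psap rose in Grn+/- by 0.15 ± 0.042 (adjusted p = 0.011) in the authors' deposited table, a level of 111% of WT with an interval of 105% to 118%. In Grn-/-;GRNtg it rose by 0.13 ± 0.042 (adjusted p = 0.042) in the authors' deposited table, to 110% of WT (103% to 116%). The mutant groups differed by -0.02 ± 0.044 (adjusted p = 0.96) in the authors' deposited table, and the interval of that ratio ran from 92.9% to 105%.

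The rise of Psap rests on a small SE and not on a large difference. Of all genes, 2.79% had a larger absolute Wald statistic in Grn+/- against WT and 4.19% in Grn-/-;GRNtg against WT. Its adjusted p became 0.56 and 0.99 when the Wald statistics of each table were divided by their robust spread, 1.49 and 1.56, where a spread of 1 is that of unchanged genes. Neuronal markers had medians over 6 genes of 0.15 in Grn+/- and 0.11 in Grn-/-;GRNtg against WT, with 1 and 0 called. Snap25 rose in Grn+/-, by 0.29 ± 0.097 (adjusted p = 0.043) in the authors' deposited table. Oligodendrocyte markers had medians of -0.14 and -0.22 over 6 genes with 0 called, and microglial markers -0.07 and -0.04 over 8 genes with 0 called. Astrocyte markers had medians of -0.09 and -0.11, with Gja1 lower in Grn+/-, and endothelial markers -0.06 and -0.23, with Flt1 lower in Grn-/-;GRNtg. Leptomeningeal markers had medians of 0.10 and 0.19 with 0 called. Of 9 neutrophil and blood markers sought, Alas2 alone was tested against WT under its own symbol, and it was not called. Vamp5, which entered this list through an alias of another gene, is left aside. No neutrophil marker of this list was tested against WT. Prtn3, a neutrophil protease of another list, was at 0.02 ± 0.135 in Grn+/- and 0.06 ± 0.135 in Grn-/-;GRNtg, and was not called. With 1 such gene, at a mean normalized count of 25.9, neutrophil content was not checked there. Reads assigned to no gene were lower by 0.22 and 0.18 on the log2 scale (SE 0.052 in each), which the authors' deposited tables call with adjusted p = 0.0019 and 0.024. The part of these in the Psap values was not tested. In bulk tissue, fewer cells of a type and less RNA per cell cannot be told apart.

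Sort1 encodes sortilin, a main receptor for the uptake of extracellular progranulin, and spans chr3:108284082-108361511 on the plus strand. Its mean normalized count was 11414, or 1508 per kilobase of exon, 6.68 times the value of Grn. This ratio uses means over all genotypes, and so is above the ratio in WT alone, where Grn was higher. The fold changes correspond to 11189 normalized counts in WT, 11675 in Grn+/- and 11435 in Grn-/-;GRNtg, and no pair of these passed the test. In Grn+/- Sort1 was at 0.06 ± 0.060 against WT (adjusted p = 0.61) in the authors' deposited table, with an interval of 96.2% to 113% of the WT level. The value in Grn-/-;GRNtg was 0.03 ± 0.060 (adjusted p = 0.81), or 94.2% to 111% of WT, in the authors' deposited table. The direct comparison gave -0.03 ± 0.063 (adjusted p = 0.96) in the authors' deposited table. At this SE a rise of 12.9% or a fall of 11.4% against WT would have been called in Grn+/-. Sort1 overlaps Gm12523, an antisense gene, over 338 exonic bases, and that gene was not analysed here.

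Lrp1 encodes a large endocytic lipoprotein receptor, which takes up prosaposin together with bound progranulin, and spans chr10:127538161-127621148 on the minus strand. Its mean normalized count was 17979, or 1015 per kilobase of exon. The levels were 19069 normalized counts in WT, 16859 in Grn+/- and 17736 in Grn-/-;GRNtg. In Grn+/- it was at -0.18 ± 0.067 against WT, with p = 0.0078 before and 0.083 after adjustment over all genes in the authors' deposited table, and so did not pass. The 95% interval of that value, 80.7% to 96.8% of WT, is for this gene alone. In Grn-/-;GRNtg the authors' deposited table gives -0.10 ± 0.067 (adjusted p = 0.37), or 84.9% to 102% of WT. The mutant groups differed by 0.07 ± 0.070 (adjusted p = 0.85) in the authors' deposited table.

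Tmem106b spans chr6:13069759-13089269 on the plus strand. Its mean normalized count was 2023, or 292 per kilobase of exon, where Grn had 226. With the longest transcript as the length these became 337 and 335, so the pair was then nearly level. These means run over all genotypes, and that of Grn, 784, lies under its WT level of 1195. They therefore do not give the order of the pair in WT. The fold changes correspond to 2097 normalized counts in WT, 1901 in Grn+/- and 2053 in Grn-/-;GRNtg. Against WT, Tmem106b was at -0.14 ± 0.082 in Grn+/- (adjusted p = 0.32) in the authors' deposited table. It was at -0.03 ± 0.081 in Grn-/-;GRNtg against WT (adjusted p = 0.87) in the authors' deposited table, and at 0.11 ± 0.085 between the mutant groups (adjusted p = 0.78) there. The intervals against WT ran from 81.1% to 101% and from 87.6% to 109% of the WT level. A fall of 15.3% in Grn+/- and of 15.7% in Grn-/-;GRNtg would have been called at these SEs.

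Slpi was barely detected in the cortex. Its mean normalized count of 1.18 adds up to 15.4 over 13 libraries and was above that of 4.34% of the listed genes. It was analysed in Grn-/-;GRNtg against Grn+/- alone, where the authors' deposited table gives 0.02 ± 0.049 (adjusted p = 0.96). That SE is smaller than the 0.063 of Sort1, which has a mean normalized count of 11414, and lies near the median of 0.058 for the 1097 genes with a mean of 1 to 3. A difference between the groups was not detectable at this depth. Elane, the neutrophil elastase that Slpi blocks, was not analysed here, and Prtn3, a related neutrophil protease, had a mean normalized count of 25.9.

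**Figure D3:**
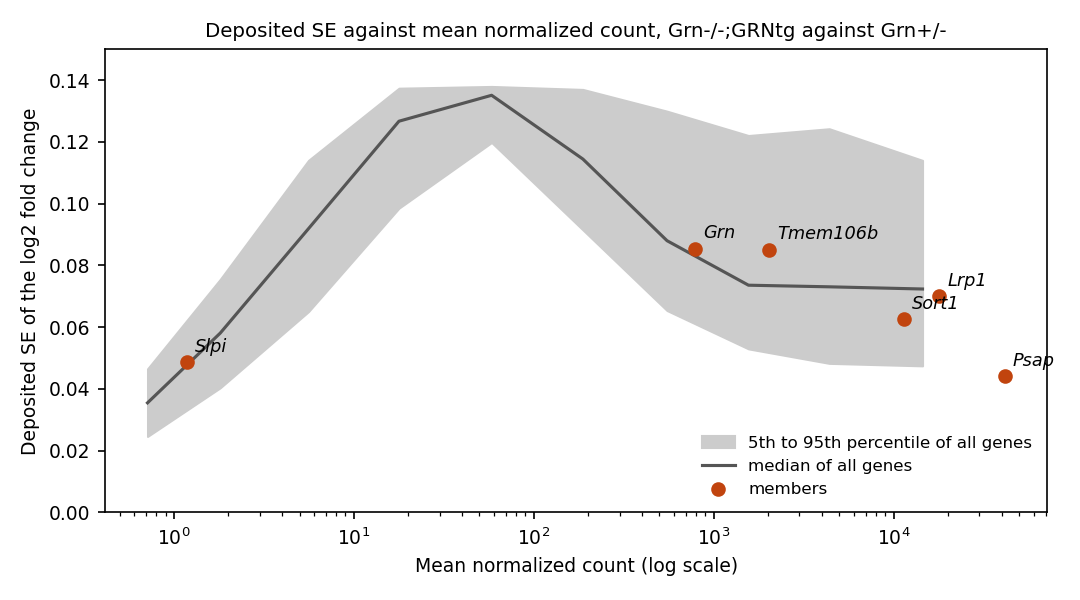
Deposited SE of the log2 fold change against mean normalized count (log axis) in Grn-/-;GRNtg against Grn+/-, with the median (line) and the 5th to 95th percentile (grey) of all genes by count range and the members as points. SEs fall on both sides of a ceiling of 0.138, and Slpi sits on the falling side at low counts, with an SE of 0.049.

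Other genes of the pathway were taken from 8 lists with 93 entries, of which 89 matched a listed gene. The lists were chosen with earlier results of these data known. In Grn+/- against WT, 1 of 78 tested was called higher and 5 lower, where 2.29% and 4.51% of all genes were. In Grn-/-;GRNtg against WT it was 2 of 85 in each direction, beside 1.81% and 3.05%. Between the mutant groups 1 of 89 was higher and 0 lower at the same threshold, beside 0.319% and 0.148%. With the Wald statistics divided by their robust spread, 3 genes in all were called in Grn+/- against WT, Grn among them. Most list calls of that comparison therefore did not hold under this setting. In Grn-/-;GRNtg against WT 5 genes in all were called under it, Grn among them.

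Among other receptors of the sortilin family, Sorcs3 rose in Grn-/-;GRNtg, by 0.32 ± 0.095 against WT (adjusted p = 0.024) in the authors' deposited table. In Grn+/- it was at 0.26 ± 0.095 (adjusted p = 0.080) there, and between the mutant groups at 0.07 ± 0.099 (adjusted p = 0.93), in the authors' deposited tables. Sorl1, Sorcs1 and Sorcs2 were called in no comparison. The median of the 4 was 0.10 in Grn+/- and 0.08 in Grn-/-;GRNtg against WT, where the median of all genes was 0.01 and 0.01.

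Of the other lipoprotein receptors and their relatives beside Lrp1, 4 of 11 were lower in Grn+/- against WT, beside 4.51% of all genes. They were Lrp6 at -0.35 ± 0.089 (adjusted p = 0.0036) and Lrp8 at -0.26 ± 0.067 (adjusted p = 0.0045), a Wnt co-receptor and a reelin receptor, in the authors' deposited table. Lrp4, which acts with agrin at synapses, fell by 0.32 (SE 0.0996, adjusted p = 0.031) and Lrp1b by 0.38 (SE 0.112, adjusted p = 0.017) in the authors' deposited table. The median over the 11 was -0.03. In Grn-/-;GRNtg against WT, 1 of 12 was lower, beside 3.05% of all genes. This was Lrp6, which fell by 0.27 (SE 0.089, adjusted p = 0.046) per the authors' deposited table. The comparison of the mutant groups called 0 of 12, beside 0.467% of all genes.

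Genes of mannose 6-phosphate sorting and retromer held 1 call among 20, in Grn+/- against WT, where 6.8% of all genes were called. Vps29, a retromer subunit, rose in Grn+/- by 0.26 ± 0.061 (adjusted p = 0.0017) in the authors' deposited table. It was at 0.12 ± 0.061 in Grn-/-;GRNtg against WT (adjusted p = 0.22) and at -0.13 ± 0.064 between the mutant groups (adjusted p = 0.51), in the authors' deposited tables. The list's median was 0.06 in Grn+/- and 0.05 in Grn-/-;GRNtg. M6pr, a mannose 6-phosphate receptor, was at 0.08 ± 0.050 and 0.07 ± 0.050 against WT, and Vps35, the retromer core, at 0.08 ± 0.083 and 0.12 ± 0.083, in the authors' deposited tables.

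Enzymes that work with saposins, and related glycolipid hydrolases, had 0 of 12 called in each comparison. Proteases reported to cut progranulin or prosaposin also had 0 called of 9, 10 and 11 tested. Ctsl and Ctsb, cathepsins of the lysosome, were at 0.18 ± 0.067 (adjusted p = 0.083) and 0.18 ± 0.069 (adjusted p = 0.099) in Grn+/- against WT in the authors' deposited table. For Ctsb the mutant groups differed by -0.22 ± 0.072, per the authors' deposited table (adjusted p = 0.17). Inhibitors with a WFDC domain and related ones had 0 called of 5, 7 and 10 tested, and the TMEM106 family with its partners 0 of 10, 11 and 11.

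Other reported receptors and binding partners had 1 of 7 lower in Grn+/- against WT, beside 4.51% of all genes. In Grn-/-;GRNtg against WT, 1 of 9 was higher and 1 lower, beside 1.81% and 3.05%. Between the mutant groups 1 of 9 was higher, beside 0.319%. Ptprd fell by 0.31 (SE 0.106, adjusted p = 0.047) in Grn+/- and was at -0.18 ± 0.106 (adjusted p = 0.33) in Grn-/-;GRNtg against WT, per the authors' deposited tables. Epha2, an ephrin receptor, fell by 0.47 (SE 0.130, adjusted p = 0.016) in Grn-/-;GRNtg and was at -0.33 ± 0.130 (adjusted p = 0.10) in Grn+/- against WT, per the authors' deposited tables. Apoa1, an apolipoprotein made mainly in liver, rose in Grn-/-;GRNtg against WT by 0.71 ± 0.114 (adjusted p = 6.7e-07) in the authors' deposited table, with a mean of 20.0 normalized counts. It was also higher than in Grn+/-, by 0.72 ± 0.111 (adjusted p = 3.5e-07) in the authors' deposited table. With the prior described above, fold changes at such low counts are drawn towards 0 more than those of abundant genes. The size of this rise can therefore not be set beside theirs. Apoa1 was not analysed in Grn+/- against WT.

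**Figure D4:**
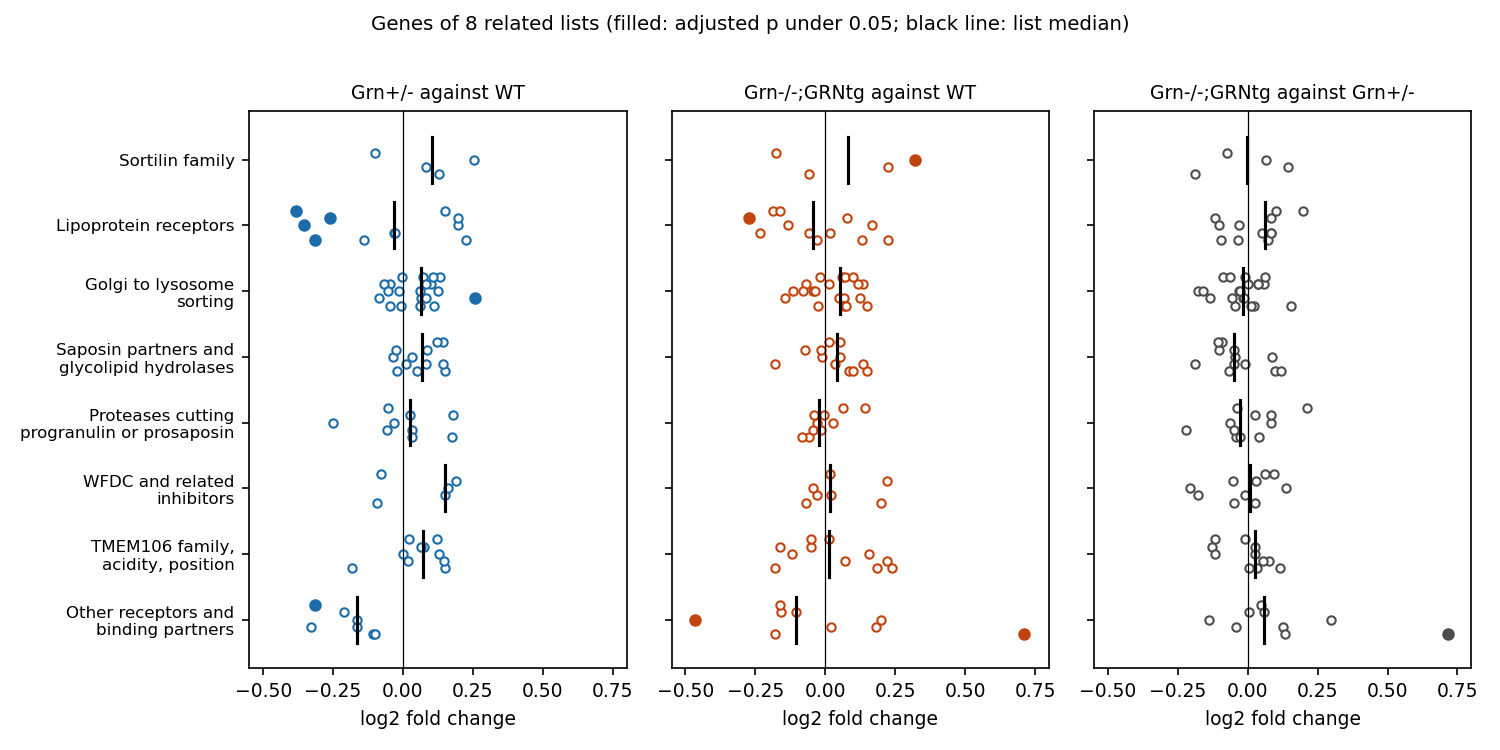
Log2 fold change of every tested gene of the 8 lists (points) in the 3 comparisons, from the authors' deposited tables, with the median of each list as a black line. Filled points passed an adjusted p of 0.05: 6, 4 and 1 genes from left to right.

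Likeness to Grn and Psap was measured as the Euclidean distance between Wald statistics of both comparisons with WT, over 3 groups and 11368 genes with a mean normalized count of at least 100. Grn stood far from all others: Tnfrsf25, Fam46a and Trib1 were nearest, at distances of 18.3, 18.7 and 19.0. Psap had close neighbours, App at 0.143, Vdac2 at 0.213 and Fam219a at 0.221. App, the amyloid precursor, was at 0.20 ± 0.058 in Grn+/- (adjusted p = 0.015) and 0.19 ± 0.058 in Grn-/-;GRNtg (adjusted p = 0.036) against WT in the authors' deposited tables. Its mean normalized count was 40793, close to that of Psap. Vdac2, a mitochondrial channel, was at 0.18 ± 0.050 (adjusted p = 0.010) and 0.14 ± 0.050 (adjusted p = 0.061) in the authors' deposited tables. Distances over values that share the WT mice are a description.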

How the data were processed

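The files hold the authors' comparison tables of cortical RNA-seq and no value per mouse, so depth per library is unknown. A directional kit turned total RNA into libraries, per the labels' protocols. Build mm10, R 4.1.2 and DESeq2 1.34.0 are named in the submitters' processing notes, with no role given; no source used here gives the aligner, counter or annotation. Mean normalized counts (a signal), log2 fold changes with SEs, Wald statistics (a score) and p-values, raw and adjusted, are as the authors deposited them. A Benjamini-Hochberg adjustment run again per table gave the deposited adjusted p-values, and fold changes of the 3 tables add up, as in a single fit of all groups. Reads assigned to no gene and ambiguous reads made up 17.0% and 0.606% of mean normalized counts and were left out of counts of genes.

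Intervals are the normal 95% interval from the deposited SE. Group levels assume that the mean runs over all 13 libraries. Lengths and positions are from GENCODE M21 and start regions from RefSeq (GRCm38.p6), with entries for 5 of 6 members. Python 3.11.15, numpy 2.4.6, pandas 2.3.3, scipy 1.17.1 and matplotlib 3.10.9 were used. Members and lists were chosen with earlier results of these data known. Genes named beside the members passed in a list, overlap a member or lie nearest to Grn or Psap; Sorl1, Sorcs1, Sorcs2, M6pr, Vps35, Ctsl, Ctsb, Elane and Prtn3 were named after their values were seen. Alternatives were other adjustments, a minimum count or fold, statistics divided by their robust spread (scaled median absolute deviation), subtraction of the median, the prior undone, and another transcript length.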

Additional observations from a re-analysis of the deposited data

How the results depend on the processing

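Grn kept its direction and its call in all 3 comparisons under every alternative run. The count of members called fell from 2 to 1 (Grn) in both comparisons with WT with the robust spread, with absolute log2 fold changes of at least 0.3 required and with Bonferroni adjustment, and stayed at 1 between the mutant groups. Psap, at 0.15 in Grn+/- and 0.13 in Grn-/-;GRNtg against WT, lost its call in both with the robust spread (adjusted p = 0.56 and 0.99). With the median of all genes subtracted it was at 0.13 in Grn-/-;GRNtg with adjusted p = 0.052, and so did not pass. Undoing the prior moved Grn in Grn-/-;GRNtg from 24.7% to 21.2% of WT. With the robust spread, 3 genes in all were called in Grn+/- against WT in place of 917, 5 in Grn-/-;GRNtg against WT in place of 728, and 29 between the mutant groups in place of 82. Counts over all genes were 499, 454 and 69 with the minimum fold, 108, 66 and 22 with Bonferroni adjustment, and 43 and 36 between the mutant groups over genes in all 3 tables and over genes with a mean normalized count of at least 100. The cause was not tested. Slpi gave no value with the prior undone, since it stands in 1 table. No paired analysis was possible because the tables hold no values per mouse, and for the same reason no mouse could be left out.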
